A study of Boehmeria nivea with 2 samples.

Results

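Polyphenol oxidase unigenes comp20474_c0, comp25258_c0 and comp25258_c2 were examined in undamaged leaves of ramie plants with and without larvae of the ramie moth (RM). A unigene is one assembled transcript group of the de novo transcriptome, and these are 3 of 46,533. They were given as a list of identifiers drawn up with the ratio between the libraries already known, so they were selected on the read counts compared here and all their ratios are descriptions. Both libraries came from leaves of ramie (Boehmeria nivea) cultivar Chuanzhu No.8, a cultivar moderately resistant to RM, on 30-day-old plants. The challenged library (CH) came from plants that received 2 fasted second-stage larvae on leaf 4 from the apex, and the control library (CK) from plants sampled at the same times without feeding larvae. The labels call CK mock-challenged in one place and unchallenged in another, and one protocol sentence can be read as placing larvae on both groups. CK is taken here as the group without larvae, as the study's methods have it. In each group, RNA of the 2 topmost undamaged leaves was taken at 12, 24, 48 and 72 h, with 5 plants pooled per time, and the 4 time points were mixed in equal amounts into 1 library. With 1 library per group no difference has a replicate check, and the mixing leaves no view of single plants or times.

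Polyphenol oxidases are copper enzymes that use oxygen to turn diphenols into quinones. In many plants they are made as precursors that enter the chloroplast and end in the thylakoid lumen, while their phenolic substrates lie in the vacuole, so enzyme and substrate meet when tissue is crushed. The quinones brown the tissue and attach to proteins, which lowers their value as insect food. In tomato and poplar some polyphenol oxidase genes are known to be induced by wounding, by feeding insects or by jasmonate, the wound hormone.

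All 3 unigenes were higher in CH than in CK, comp20474_c0 by far the most. Levels are the deposited RPKM, that is reads per kilobase of effective length scaled to the number of reads in the library. A fold is the ratio of reads per library total, and the brackets after it hold the exact 95% (Clopper-Pearson) interval, which covers counting error only. Counted fragments, called reads here, numbered 17,800,062 in CK and 26,938,918 in CH. Reads are the deposited expected counts after rounding.

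The unigene comp20474_c0 is a transcript of 2,262 bp whose best hit in the Nr database was a polyphenol oxidase of walnut (Juglans regia). It had 209 reads in CK and 26,541 in CH. Its level was 5.41 RPKM in CK (4.70 to 6.20) and 453 RPKM in CH (448 to 459), an 83.9-fold ratio (73.2 to 96.6). This took it from rank 11,986 by RPKM among all unigenes in CK to rank 164 in CH. By the gain in RPKM, 448, it stood at rank 40 of all unigenes, and by fold at rank 27 of the 15,815 unigenes whose reads summed to at least 50.

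The 2 unigenes of component comp25258 were higher in CH by a smaller factor. The longer of these short fragments, comp25258_c2 (367 bp), had a best Nr hit in ryegrass (Lolium perenne), with 44 reads in CK and 242 in CH. Its level was 9.0 RPKM in CK (6.54 to 12.1) and 32.2 RPKM in CH (28.3 to 36.5), a 3.63-fold ratio (2.63 to 5.13). The fragment comp25258_c0 (358 bp), with a best Nr hit in mango (Mangifera indica), had 54 reads in CK and 362 in CH. Its level was 11.4 RPKM in CK (8.58 to 14.9) and 49.8 RPKM in CH (44.8 to 55.2), a 4.43-fold ratio (3.32 to 6.01). The counting intervals of these 2 folds overlap each other, and neither overlaps that of comp20474_c0.

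Among the 3, the order of the levels turned around between the libraries. In CK comp25258_c0 was 2.11 times the level of comp20474_c0, and comp25258_c2 was 1.66 times. In CH comp20474_c0 was 9.11 times the level of comp25258_c0 and 14.1 times that of comp25258_c2. Together they summed to 25.8 RPKM in CK and 535 RPKM in CH. Their 307 and 27,145 reads gave a 58.4-fold ratio (52.2 to 65.6), of which nearly all the CH reads belong to comp20474_c0. The worth of 1 read differed between them with effective length. In CK it was 0.0259 RPKM on comp20474_c0 but 0.211 RPKM on comp25258_c0 and 0.204 RPKM on comp25258_c2.

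Component comp25258 of the assembly holds 2 further unigenes with similar ratios. The unigene comp25258_c1 (253 bp), whose best hits are also polyphenol oxidases, had 22 reads in CK and 137 in CH, or 7.69 and 30.8 RPKM, a 4.11-fold ratio (2.61 to 6.78). The unigene comp25258_c3 (241 bp) has no database hit and had 10 reads in CK and 109 in CH, or 3.78 and 26.4 RPKM, a 7.20-fold ratio (3.77 to 15.4). The intervals of all 4 folds overlap. The 4 unigenes sum to 1,219 bp, and their 130 and 850 reads gave a 4.32-fold ratio (3.59 to 5.24). Whether they are pieces of 1 transcript was not tested, and unigenes of one component or family can share reads. The expected counts of comp25258_c0, comp25258_c1 and comp25258_c2 were whole numbers in both libraries. In CH that of comp25258_c3 was 109.02 and that of comp20474_c0 was 26,541.1. The sharing of reads was not tested.

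In all, 20 unigenes had a polyphenol oxidase among their Swiss-Prot or Nr hits, and 17 of these are not among the 3 described. The fold of 1 unigene outside the list falls among those inside it. The lowest fold inside is that of comp25258_c2, 3.63, while comp25258_c1 with 4.11 lies outside. The next outside, comp35793_c0 with 2.42, is below all 3. A unigene was counted as higher or lower in CH when its fold was at least 2 and it had at least 10 reads over both libraries. By this measure 9.50% of the 23,653 unigenes with enough reads were higher and 12.8% were lower. All 3 chosen unigenes were higher, as their choice would give, and each had at least 44 reads in CK alone. Of the other 17, 12 had at least 10 reads over both libraries, among which 3 were higher, 2 were lower and 7 were neither. The median log2 fold of these 12 was 0.10, beside −0.01 over all unigenes with enough reads. For 5 of the 12 the counting interval includes a ratio of 1.

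**Figure D1:**
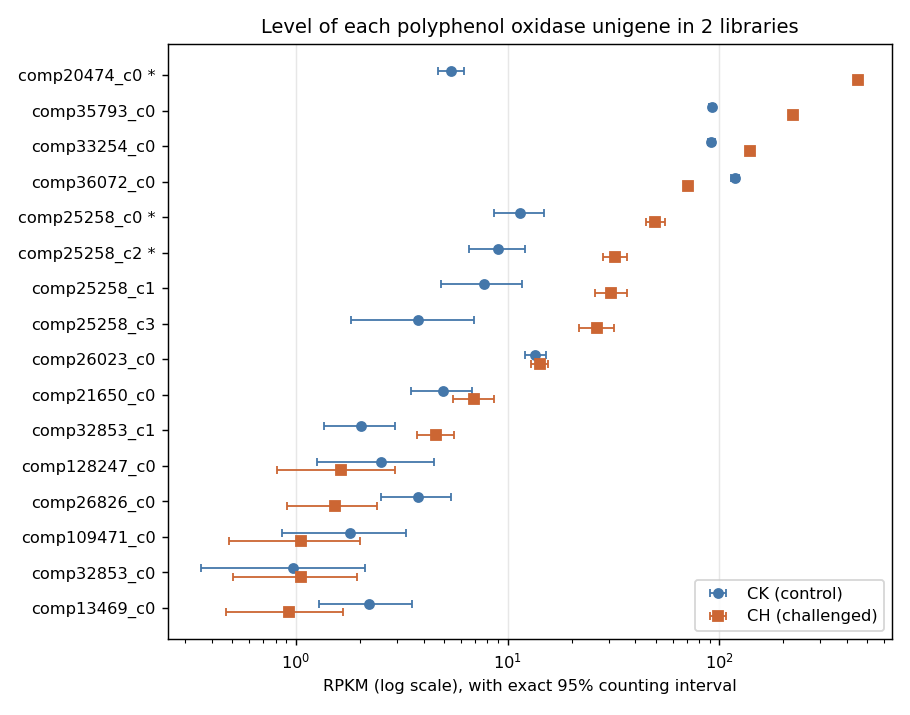
RPKM (log axis) of the 15 polyphenol oxidase unigenes with 10 or more reads in all, and of comp25258_c3, which has no database hit, in CK (circles) and CH (squares), 1 library each. Bars are exact 95% counting intervals and asterisks mark the 3 chosen unigenes. The point of comp20474_c0 moves from 5.41 to 453 RPKM, past comp35793_c0 at 222 RPKM.

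In CK the family was carried by 3 other unigenes. These were comp36072_c0 with 119 RPKM, comp35793_c0 with 92.1 RPKM and comp33254_c0 with 91.6 RPKM. The first stood above the others beyond counting error, and comp35793_c0 and comp33254_c0 did not differ beyond it. Together the 3 held 82.1% of the polyphenol oxidase RPKM in CK, while comp20474_c0 held 1.47%. Below them, in order, came comp26023_c0 (13.5 RPKM), comp25258_c0, comp25258_c2, comp25258_c1 and then comp20474_c0 at rank 8 of 20. From comp26023_c0 downward no neighbours in this order differed beyond their counting intervals.

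In CH comp20474_c0 was the most abundant polyphenol oxidase and held 43.9% of the family's RPKM. It was 2.04 times the level of comp35793_c0 (222 RPKM), the next in order, and 3.25 times that of comp33254_c0 (140 RPKM). Then came comp36072_c0 (70.9 RPKM), comp25258_c0 and comp25258_c2. In this order each neighbour down to comp25258_c2 differed from the next beyond counting error, and comp25258_c2 did not differ so from comp25258_c1. The summed level of the 20 unigenes was 368 RPKM in CK and 1,032 RPKM in CH. Of the gain of 664 RPKM, comp20474_c0 made up 67.4%, and comp25258_c0 and comp25258_c2 together 9.27%. By reads the family was 3.41-fold higher in CH (3.34 to 3.48), and without comp20474_c0 it was 1.72-fold higher (1.68 to 1.76).

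**Figure D2:**
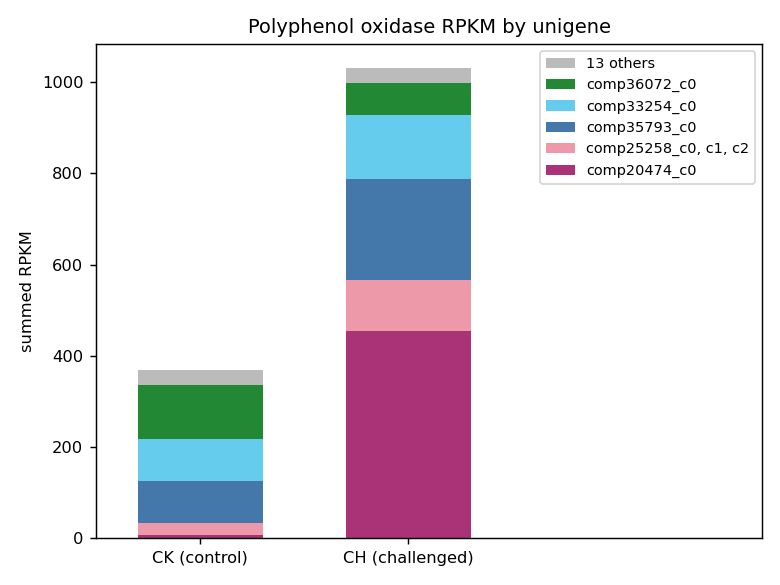
Summed RPKM of the 20 polyphenol oxidase unigenes in CK and CH, 1 library each, stacked by unigene. The segment of comp20474_c0 is 1.47% of the CK bar and 43.9% of the CH bar, and the bars reach 368 and 1,032 RPKM.

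The abundant unigenes outside the list did not move alike. The transcript comp35793_c0 (2,501 bp, best Nr hit in a strawberry, Fragaria pentaphylla) had 3,948 and 14,442 reads in CK and CH and was 2.42-fold higher in CH (2.33 to 2.50). The transcript comp33254_c0 (2,222 bp) had 3,474 and 8,025 reads, a 1.53-fold ratio (1.47 to 1.59) that stayed under 2-fold. The transcript comp36072_c0, with best hit in jujube (Ziziphus jujuba), had 1,952 and 1,879 reads and was 1.57-fold lower in CH (1.47 to 1.68). It is assembled as 4 transcripts, and it is the only one of the 20 whose average length differed between the libraries. Among the less abundant ones, comp32853_c1 was 2.26-fold higher (1.48 to 3.54, 29 and 99 reads). Lower were comp26826_c0, by 2.44-fold (1.31 to 4.66, 29 and 18 reads), and comp13469_c0, by 2.34-fold (1.03 to 5.52, 17 and 11 reads). The unigene comp26023_c0 had 310 and 492 reads, a ratio of 1.05 (0.908 to 1.21).

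**Figure D3:**
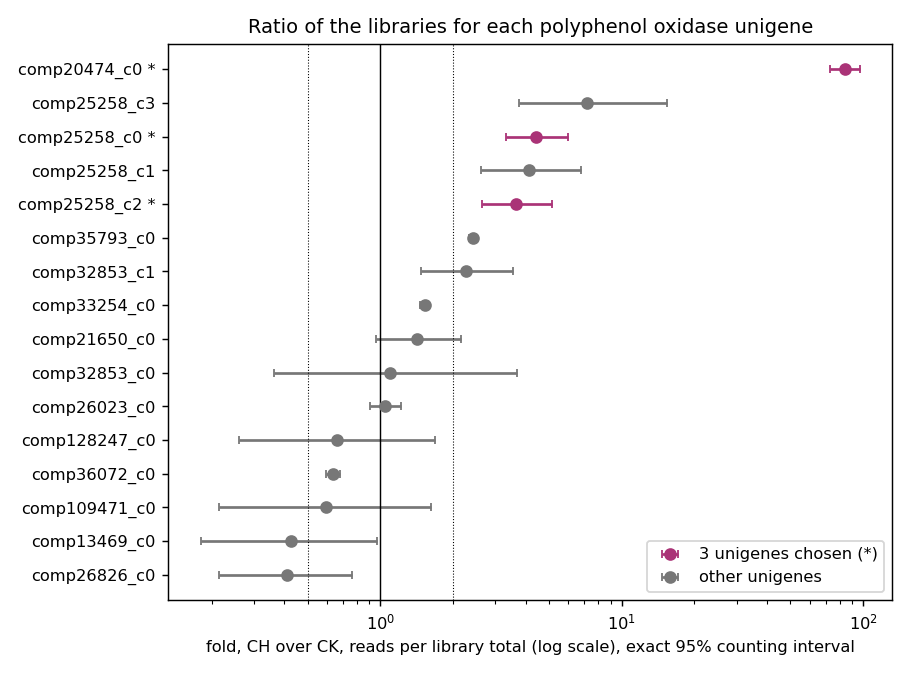
Fold of CH over CK (log axis, reads per library total) with exact 95% counting intervals for the same 16 unigenes, with the 3 chosen in colour and with asterisks. The solid line marks equal levels and the dotted lines 2-fold. The value for comp20474_c0, 83.9, lies apart from the 3.63 to 7.20 of the 4 unigenes of comp25258, and comp36072_c0 lies below 1.

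Lengths and hits differ within the family. Of the 20 unigenes, 3 were at least 2,000 bp long, comp20474_c0 among them, and 14 were under 600 bp, comp25258_c0 and comp25258_c2 among them. All 20 had a Swiss-Prot hit described as chloroplastic. That hit was the apple enzyme (Malus domestica) for 15, including comp20474_c0 and comp25258_c2, and the grape enzyme (Vitis vinifera) for 4, including comp25258_c0. Only comp25258_c0 carried the KEGG ortholog of polyphenol oxidase. Gene Ontology terms for copper binding, the vacuolar lumen, pigment synthesis and aureusidin synthase were given to all 3 and to 16 of the other 17. Aureusidin synthase is a polyphenol oxidase homolog that makes yellow aurone pigments in snapdragon petals. The catechol oxidase term was given to none of the 3 and to 8 of the other 17, while the broader term for oxidoreductases acting on diphenols with oxygen was given to 2 of the 3 and to 1 of the other 17. These terms are transferred from similar proteins, and no enzyme activity was measured.

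**Figure D4:**
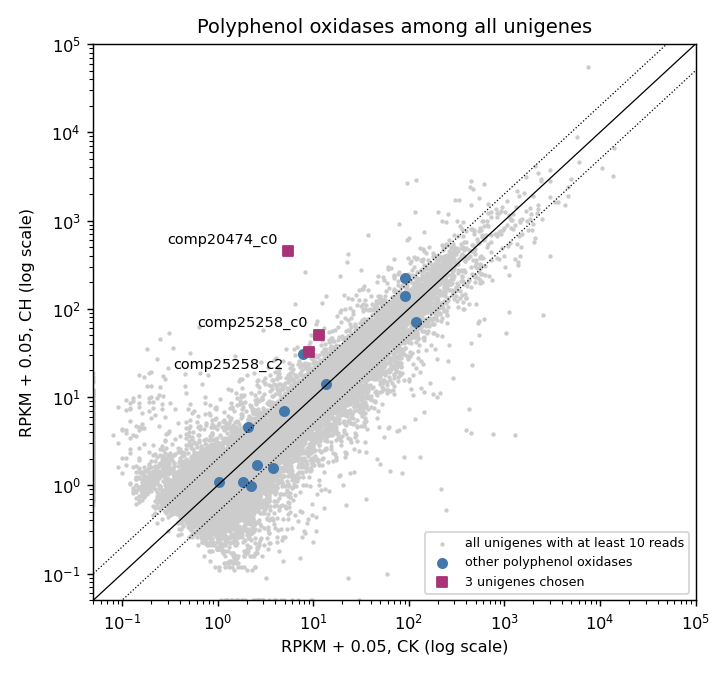
RPKM in CK and CH (log axes, 0.05 added to each value) of the 23,653 unigenes with 10 or more reads in all (grey), the other polyphenol oxidases (circles) and the 3 chosen unigenes (squares). The solid line marks equal levels and the dotted lines 2-fold. The point of comp20474_c0, at 5.41 and 453 RPKM, lies far above the lines, where few grey points lie.

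The unigene nearest to comp20474_c0 in level in both libraries lay farther from it than did those nearest to the other 2 members. The selection of comp20474_c0 on the ratio would give this. Likeness was taken as the distance between log2(RPKM + 0.1) values over the 2 libraries, among unigenes whose Nr hit names a protein. Nearest was comp34766_c1, a homolog of a bark storage protein of poplar, at a distance of 0.98, with 8.07 RPKM in CK and 261 RPKM in CH. Next were a PR-1 homolog (comp32330_c0, distance 2.00, 6.34 and 114 RPKM) and a jacalin-type lectin homolog of jackfruit (comp29480_c0, distance 2.02, 18.9 and 234 RPKM). Closer neighbours were found for comp25258_c0 and comp25258_c2. For comp25258_c0 these were comp38247_c2, a Rossmann-fold dehydrogenase (distance 0.04, 11.7 and 50.6 RPKM), the carboxyl methyltransferase homolog comp37495_c0 (0.09) and comp39181_c0 (0.16), a MORN repeat protein. For comp25258_c2 they were the glutaredoxin homolog comp28521_c0 (distance 0.10, 9.43 and 30.6 RPKM), the tropinone reductase homolog comp31767_c0 (0.14) and the glycosyl hydrolase comp37878_c1 (0.22). The measure uses 2 values per unigene.

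Other enzymes that oxidize phenols or carry copper had smaller ratios than comp20474_c0, as its selection on the ratio would give. This is not a contrast between enzyme families. Of all unigenes with enough reads, 9.50% were higher in CH and 12.8% lower, with a median log2 fold of −0.01. Among 21 laccases, which polymerize lignin precursors, 8 had enough reads, with 1 higher in CH and 1 lower and a median log2 fold of 0.12. The laccase-4 homolog comp34397_c0, the most abundant, had 6.89 RPKM in CK and 4.40 RPKM in CH. Of 6 ascorbate oxidases and homologs with enough reads, 5 were lower and 0 higher, with a median log2 fold of −1.44. The most abundant of these was comp31331_c0, 4.91-fold lower (4.26 to 5.67). Among 35 class III peroxidases with enough reads, which oxidize phenols with hydrogen peroxide, 8 were higher and 2 lower. Their median log2 fold was 0.54. The most abundant, the peroxidase 42 homolog comp34449_c0, had 1,145 RPKM in CK and 1,063 RPKM in CH. The abundant lignin-forming anionic peroxidase comp32955_c0 was 3.10-fold higher (3.03 to 3.18), and the peroxidase 21 homolog comp33647_c0 was 3.65-fold higher (3.38 to 3.94). The lower ones were comp31888_c0, by 5.38-fold (4.41 to 6.61, 448 and 126 reads), and comp30251_c0, by 3.39-fold (2.85 to 4.05, 426 and 190 reads).

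Among genes that supply the phenolic substrates, more were at least 2-fold lower in CH than at least 2-fold higher. Of 45 unigenes for phenylalanine ammonia-lyase, cinnamate 4-hydroxylase, 4-coumarate-CoA ligase, hydroxycinnamoyl transferases and coumarate hydroxylases, 32 had enough reads. Among these 10 were lower, 5 were higher and 17 were neither, with a median log2 fold of −0.64. Of all unigenes with enough reads, 12.8% were lower and 9.50% higher, with a median log2 fold of −0.01. The most abundant, the cinnamate 4-hydroxylase comp34547_c2, had 90.8 RPKM in CK and 63.8 RPKM in CH. A 4-coumarate-CoA ligase (comp25248_c0) was 5.40-fold lower (3.36 to 8.98, 82 and 23 reads). A homolog of a transferase that joins hydroxycinnamic acids to spermidine (comp31419_c0) had 53 reads in CK and 574 in CH, 7.16-fold by reads (5.40 to 9.67). Its levels were 3.09 and 13.8 RPKM, a ratio below that interval, so its fold depends on the measure.

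Of 21 copper transporters and chaperones with enough reads, 1 was higher, 2 were lower and 18 were neither, where 9.50% of all unigenes with enough reads were higher and 12.8% lower. The higher one was a COPT5 homolog (comp26403_c1, 4.95-fold, 3.43 to 7.35, 33 and 247 reads), a transporter that exports copper from the vacuole in Arabidopsis. A homolog of the copper chaperone ATX1 (comp29732_c0) was 2.53-fold lower (2.10 to 3.07, 298 and 178 reads). The copper chaperone CCH (comp30922_c1), the most abundant, had 241 RPKM in CK and 205 RPKM in CH. Of 6 unigenes with enough reads for plastocyanins or copper-zinc superoxide dismutases, 2 were lower and 0 higher. The unigene comp30069_c0, whose Swiss-Prot hit is plastocyanin, the copper protein that carries electrons in the thylakoid lumen, was 2.18-fold lower (2.15 to 2.21). Its Nr hit is a glycosyltransferase, so its reads may not all be plastocyanin. A chloroplast copper-zinc superoxide dismutase (comp29067_c0) was 2.61-fold lower (2.51 to 2.73).

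**Figure D5:**
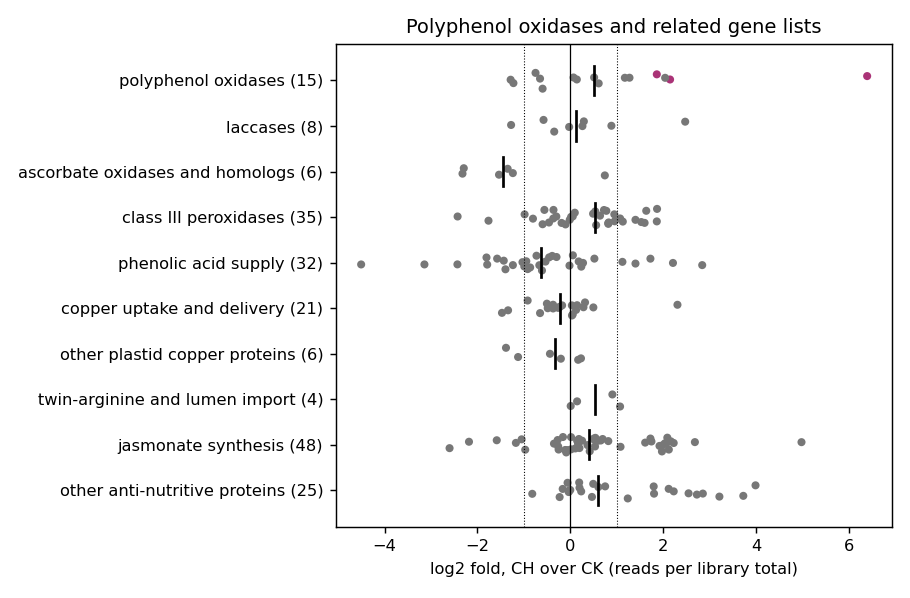
Log2 fold of CH over CK for each unigene with 10 or more reads in all, in the polyphenol oxidases and 9 related lists, with the number of points in brackets, the 3 chosen unigenes in colour and the median as a bar. Vertical spread within a list carries no value. The point of comp20474_c0 lies at 6.39, and the medians run from −1.44 for ascorbate oxidases to 0.60 for other anti-nutritive proteins.

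Leaf markers were abundant in both libraries and lower in CH. The 77 unigenes for the rubisco small subunit, rubisco activase and chlorophyll a-b binding proteins summed to 68,287 RPKM in CK and 27,522 RPKM in CH. They made up 5 of the 10 most abundant unigenes in CK and 3 of 10 in CH. Of the 57 with enough reads, 21 were lower and 0 higher, with a median log2 fold of −0.69. Of all unigenes with enough reads, 12.8% were lower and 9.50% higher, with a median log2 fold of −0.01. The part of the leaf markers in the ratios of the polyphenol oxidases was not tested. In such bulk samples, more cells of a type and more RNA per cell cannot be told apart.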

How the data were processed

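Leaf RNA was sequenced in 1 library of control (CK) and 1 of challenged plants (CH). The authors assembled the reads of both with Trinity and deposited, per unigene, an expected count (not normalized), an RPKM by effective length and library total, and a TPM scaled to a fixed sum. Unigene lengths and annotation text were also deposited by the authors. For mapping and counting, the program was not given in the sources used here. The submitters' processing notes name DESeq without a version.

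Expected counts were rounded, and folds were ratios of reads per library total with exact 95% intervals. Where a library had 0 reads, a floor of 3 reads was used, and no fold was given when both libraries were at or under it. The members were chosen on this contrast and each group has 1 library, so no test was run and no p-value is given. Intervals cover counting error only. The interval computation was tested on simulated data.

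Related lists were matched by words in the Nr and Swiss-Prot hits, leaving out ascorbate and glutathione peroxidases, ligase-like and acyl-activating enzymes and inter-alpha inhibitor chains, a choice made after seeing the matches. Members, lists and rules were chosen with earlier results of these data known. Named are the 3 members, other polyphenol oxidases or unigenes of the same component, the most abundant of each list, up to 2 per direction at least 2-fold different with at least 50 reads over both libraries, by the interval bound nearest to 1, and the 3 nearest in level. Not all of these are printed. Alternatives were scaling by TMM (edgeR 4.0.16), median of ratios or upper quartile, RPKM or TPM ratios, pseudocounts of 0.1 and 1, unrounded counts, other read filters and a 4-fold threshold. Python 3.11.15, numpy 2.4.6, pandas 2.3.3, scipy 1.17.1, matplotlib 3.10.9 and R 4.3.3 were used.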

Additional observations from a re-analysis of the deposited data

How the results depend on the processing

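All 3 polyphenol oxidases stayed above a 3-fold ratio under every alternative run. The fold of comp20474_c0 ranged from 70.9 to 95.1 over 8 alternatives and left its counting interval only with a pseudocount of 1 on RPKM (70.9). That of comp25258_c0 ranged from 4.08 to 5.02 and that of comp25258_c2 from 3.32 to 4.32 over 10 alternatives each, all within their intervals. One of these, adding all 4 unigenes of comp25258, was chosen after seeing the data. The upper quartile moved the median log2 fold of unigenes with at least 50 reads from −0.00 to 0.18, and TMM and the median of ratios by less than 0.1. The family's ratio was 2.80 by summed RPKM and 1.72 without comp20474_c0, against 3.41.

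Of all unigenes, 2,247 were higher and 3,018 lower. With at least 50 reads these were 866 and 1,494 of 15,815 unigenes. At 4-fold they were 757 and 773, and with at least 1 read 3,362 and 4,576. With at least 50 reads, 6 polyphenol oxidases were higher and 0 lower, and 0 laccases were higher and 0 lower. Of phenolic acid genes 2 were higher and 5 lower, and of copper transport genes 1 was higher and 1 lower. Other anti-nutritive proteins had 6 higher and 0 lower, class III peroxidases 6 and 2, and jasmonate genes 11 and 4. Fewer unigenes pass that filter, and the number passing in each list is not given, so these counts give no shares. No paired analysis was possible because each group has 1 library. Leaving out a replicate was not possible for the same reason. Depth limits the short unigenes most, as the 44 and 54 CK reads of comp25258_c2 and comp25258_c0 show in their wide intervals.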

Other observations

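Among genes of jasmonate, which in tomato induces polyphenol oxidase, more were higher in CH than lower. Of 55 unigenes for lipoxygenases (9-lipoxygenases, which do not make jasmonate, included), allene oxide synthase and cyclase, oxophytodienoate reductase, JAZ repressors and jasmonate-modifying enzymes, 48 had at least 10 reads over both libraries. Among these 15 were at least 2-fold higher, 5 at least 2-fold lower and 28 neither. Of all unigenes with enough reads, 9.50% were higher and 12.8% lower. The median log2 fold of the 48 was 0.39, beside −0.01 over all unigenes. The most abundant, a chloroplast 13-lipoxygenase homolog (comp38454_c0), was 4.22-fold higher (4.17 to 4.27), with 612 RPKM in CK and 2,580 RPKM in CH. Higher too were a 13-lipoxygenase homolog (comp31063_c0), by 31.5-fold (14.3 to 86.5, only 6 reads in CK and 286 in CH), and a 9-lipoxygenase homolog (comp29491_c1), by 6.42-fold (6.13 to 6.72). Lower were a jasmonate O-methyltransferase homolog (comp35473_c0), by 6.07-fold (4.93 to 7.52), and a 13-lipoxygenase homolog (comp25237_c0), with 4.28 and 1.42 RPKM.

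Among other proteins that can lower the food value of a leaf, more were at least 2-fold higher in CH than at least 2-fold lower. Of 25 unigenes with enough reads for protease inhibitors, arginase, threonine dehydratase and leucine aminopeptidase, 11 were higher and 0 lower. Of all unigenes with enough reads, 9.50% were higher and 12.8% lower. The median log2 fold of the 25 was 0.60, beside −0.01 over all unigenes. The Bowman-Birk trypsin inhibitor comp38186_c0 was 7.22-fold higher (7.17 to 7.28), and the proteinase inhibitor comp39830_c0 was 5.84-fold higher (5.08 to 6.73). The chloroplast twin-arginine pathway carries folded proteins, polyphenol oxidases among them, into the thylakoid lumen. Of its 4 unigenes with enough reads, the TATA homolog comp31395_c0 was 2.10-fold higher (1.98 to 2.23, 109 and 227 RPKM) and the other 3 were neither higher nor lower.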
